A study of Saccharomyces cerevisiae with 16 samples.

Results

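Long genes were taken as those whose counted coding region spans at least 4000 nt, and 175 of the 5647 genes in the deposited tables met that length. The counted region of a gene is its coding sequence (CDS) without the first 15 and the last 5 codons, where cycloheximide distorts ribosome density. A gene also needed, in a background, a mean of at least 32 reads over its 4 mRNA libraries. In the Degron background 174 long genes passed, of 5306 genes in all, and in the DDKK background 175 passed, of 5244 genes. The counted length of the long genes ran from 4008 to 14673 nt, with a median of 4707 nt against 1143 nt for all genes in the tables. The members were thus chosen by length and mRNA depth alone, and no measured change was used to choose them.

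Ribosome footprints (the mRNA fragments that a ribosome shields from nuclease) and fragmented total mRNA were sequenced from 2 cultures of each of 4 *S. cerevisiae* strains, which gave 16 libraries. The *eIF3a/b Degron* strain makes eIF3a (*TIF32*) and eIF3b (*PRT1*) as degron fusions from the copper-regulated *CUP1* promoter, and it was set against a WT strain without the fusions. Both of these strains carry *gcn2::hisG* and myc-*UBR1* under the *GAL1* promoter, and both were moved to galactose medium with the copper chelator BCS and shifted from 25 °C to 36 °C for 90 min. The *eIF3i DDKK* strain carries a deletion of *TIF34* (eIF3i) and a plasmid copy with the changes that its name refers to, tagged with HA, and its WT carries the plasmid with unmutated *TIF34*-HA. Both of these carry *GCN2* inserted at *ura3*, and both were shifted from 30 °C to 37 °C in the same medium for 30 min. The backgrounds therefore differ in parent strain, medium, temperature and time, and each mutant was compared with the WT of its own background.

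eIF3 is the largest of the eukaryotic initiation factors and binds the small ribosomal subunit, where it helps to recruit the initiator tRNA and the mRNA. In yeast its a, b and c subunits form the core, and i and g form an arm that reaches towards the channel through which mRNA enters. Translational efficiency (TE) is the number of footprints on a CDS per unit of its mRNA, and in yeast long CDSs are known to carry fewer ribosomes per length than short ones. The longest yeast genes encode large multidomain proteins, among them the catalytic subunits of RNA polymerases, fatty acid synthase, dynein, TOR and related kinases, membrane transporters and nuclear pore scaffolds.

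TErel is used here for the log2 ratio of scaled footprint counts to scaled mRNA counts of a gene in a culture, and ∆TErel for its log2 change, mutant over WT. No spike-in was added, so ∆TErel ranks a gene against the rest of its own libraries, and an equal change of all mRNAs cannot be seen. Changes were tested with edgeR's quasi-likelihood test on the counts of all genes, with Benjamini-Hochberg adjustment over all of them, and a change was called at an adjusted p under 0.05. Counts per library were 6157260 to 6493910 footprints and 6030299 to 6390720 mRNA reads in *eIF3a/b Degron* cells, against 18160621 to 20768634 and 9002332 to 10994187 in their WT. They were 5136423 to 6177463 footprints and 4389212 to 5048425 mRNA reads in *eIF3i DDKK* cells, against 26747366 to 29982592 and 6924926 to 12164617 in their WT. The typical long gene had 2414.5 footprints and 8297.5 mRNA reads over the 8 Degron libraries (medians), and 3512 and 5584 over the 8 DDKK libraries. Cultures of one strain differed less in Degron libraries (median chi-square of long genes 1.09 to 1.48) than in DDKK libraries (3.18 to 20.0). The chi-square was scaled by total reads, which include YDR445C. That gene took 29.9% and 17.4% of the mRNA reads in the DDKK WT cultures, which shifts all other genes between them. In the TMM-scaled fits the spread between cultures beyond counting noise (biological coefficient of variation) was 0.0483 in the Degron and 0.121 in the DDKK background. This spread bears on how small a change each background can show. Counting noise alone gives a mean chi-square of 1, and its median is lower. Over all genes the mean was 3.87 to 7.29 for Degron strains, and for DDKK strains 21.1 to 78.5. Cultures of one strain thus differed by more than counting noise in each background. Of the 175 long genes 2, *FLO1* and *THO2*, share over 10% of their 28-nt windows with another gene, so that their counts are uncertain.

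In WT cells the long genes had low TErel. Their median minus that of all genes was -1.75 in culture 1 and -1.69 in culture 2 of the WT of *eIF3a/b Degron* on the log2 scale, and 169 of the 174 were below the median of all genes in both cultures. In the WT of *eIF3i DDKK* it was -1.57 and -1.50, and 168 of the 175 were below in both cultures. The low TErel came with few footprints and not with little mRNA. Per kilobase of counted length, the median long gene had 12.6 footprint RPKM (footprints scaled by the length of the gene and the size of the library), against 43.3 for all genes in the WT of *eIF3a/b Degron*, whereas its mRNA was at 40.6 RPKM, against 46.5 for all genes. The same order was seen in the WT of *eIF3i DDKK*, with 12.5 against 39.3 footprint RPKM and 35.1 against 40.1 mRNA RPKM. In the mutants this difference was larger, at -1.95 and -2.00 in the *eIF3a/b Degron* cultures and at -1.71 and -1.78 in the *eIF3i DDKK* cultures.

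The spread among the long genes was wide, with WT TErel from -6.35 to 1.52 relative to the median of all genes in the Degron background. *HOB2*, which encodes a large lipid-transfer protein, was the lowest. Its TErel, without the median of all genes (-0.02 and -0.03) subtracted, was -6.38 and -6.36 in the WT cultures. It had only 43 and 37 footprints there for 2659 and 3092 mRNA reads. *EDE1*, an early-acting endocytic coat protein, was among the few long genes above the median, with TErel of 0.79 and 0.64, also without subtraction. The WT TErel of the long genes in the 2 backgrounds had a Pearson correlation of 0.94 across the 174 genes, which share no library but do share sequence and length.

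In *eIF3a/b Degron* cells TErel fell for 92 of the 174 long genes (52.9%, against 33.1% of all genes tested) and rose for 21 (12.1%, against 26.8%). The median ∆TErel of the long genes was -0.31, with quartiles of -0.74 and 0.03, and that of all genes was -0.04. Of the 174, 125 were below 0, and the median SE of a long gene was 0.109. In each of the 92 and the 21 the mutant cultures did not overlap with the WT cultures. These genes were called from the same cultures, so the separation is no independent evidence. Scaled by library size alone, the median of all genes was 0.28, 60 long genes fell (18.4% of all genes) and 50 rose (46.7% of all genes). The median of the long genes minus that of all genes was -0.28 with TMM scaling and -0.27 with library size alone, whereas the zero from which a single gene is called moved. Without culture 1 of WT, 12 long genes rose.

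The fall did not start at 4000 nt. In *eIF3a/b Degron* cells the median ∆TErel was -0.29 in the 110 genes of 4000 to 5000 nt, -0.34 in the 29 genes of 5000 to 6000 nt and -0.44 in the 35 genes of 6000 nt or more, against -0.31 in the 261 genes of 3000 to 4000 nt, -0.26 in the 741 genes of 2000 to 3000 nt, -0.11 in the 2000 genes of 1000 to 2000 nt and 0.14 in the 2130 shorter genes. In *eIF3i DDKK* cells the same classes of long genes had medians of -0.27, -0.35 and -0.28, against -0.27, -0.19, -0.12 and 0.04 in the shorter classes. Over all genes, length and ∆TErel had Spearman correlations of -0.26 (*eIF3a/b Degron*, 5306 genes) and -0.29 (*eIF3i DDKK*, 5244 genes), and within the long genes of -0.13 and -0.09. The long genes cover a cut range of length, which by itself can lower a correlation. The weaker values within them therefore do not show where the relation with length lies. At the length limit itself, ∆TErel in *eIF3a/b Degron* cells was -0.31 for *DRS2* (4008 nt), -0.68 for *PSK1* (4011 nt) and -1.35 for *ROM2* (4011 nt), and just under it was -2.59 for *RPO41* (3996 nt), 0.03 for *IKI3* (3990 nt) and -0.34 for *LAM4* (3978 nt).

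**Figure D1:**
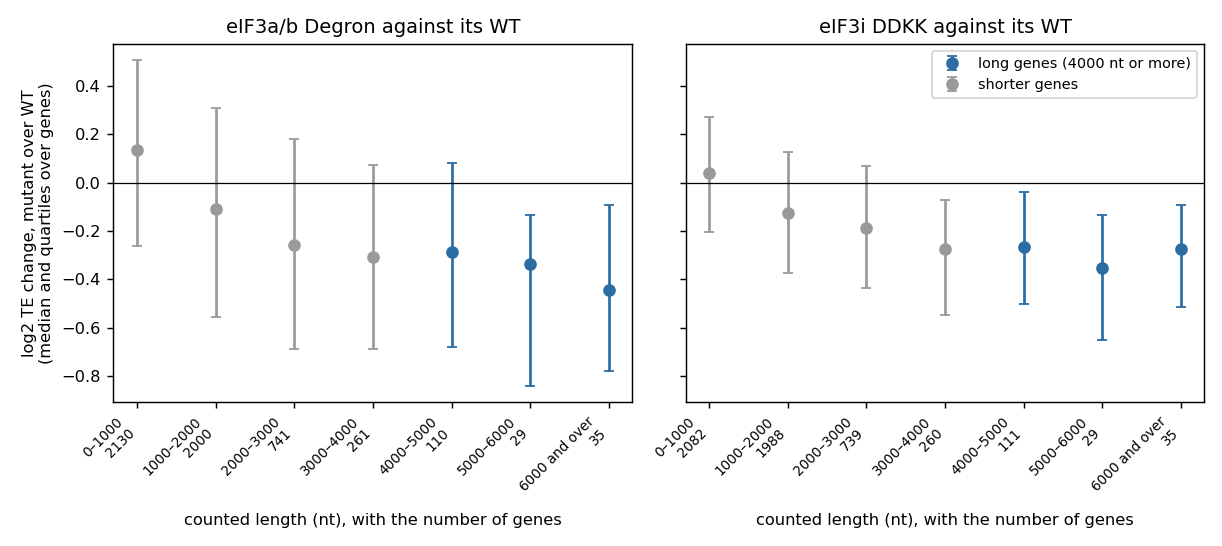
Median log2 TE change, mutant over WT, by class of counted length in nt, with bars for the quartiles over genes, with *eIF3a/b Degron* in the left panel and *eIF3i DDKK* in the right panel, and the number of genes under each class. Long genes are blue. The median passes from 0.14 below 1000 nt to -0.44 at 6000 nt and over in *eIF3a/b Degron*, and the quartiles of neighbouring classes overlap.

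Footprints and mRNA were also compared one by one. Of the 92 long genes with lower TErel in *eIF3a/b Degron* cells, which were called from these same counts, footprints fell for 74 (80.4%, against 80.5% of all genes with lower TErel) and rose for 3, while mRNA fell for 30 and rose for 39. Of the 21 with higher TErel, footprints rose for 20 (95.2%, against 87.0% of all genes with higher TErel), and mRNA rose for 9 and fell for 5. For these mRNA counts the comparison is all genes tested, of which 30.8% had lower and 44.3% higher mRNA. The mRNA calls among the 92 lay near these shares. Over all 174 long genes, footprints fell for 83 (background 41.3%) and rose for 56 (41.8%), with a median change of -0.14 against 0.01 for all genes. Their mRNA fell for 48 (30.8%) and rose for 88 (44.3%), with a median change of 0.17 against 0.12 for all genes, so that the mRNA calls stayed near the background. The long genes took 1.86 to 1.94% of the footprints in *eIF3a/b Degron* cells, against 2.21% in both WT libraries, and 7.73 to 7.76% of the mRNA reads, against 7.33 to 7.59% in WT. Without *UBR1*, which is driven by *GAL1* in both strains, these shares were 1.74 to 1.80% of the footprints, against 1.88 to 1.91% in WT, and 6.79 to 6.82% of the mRNA reads, against 6.04 to 6.10% in WT.

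In *eIF3i DDKK* cells fewer changes of TErel passed the test. The median of the long genes minus that of all genes was -0.21, against -0.28 in *eIF3a/b Degron* cells. TErel fell for 11 of the 175 long genes (6.29%, against 2.88% of all genes tested) and rose for 4 (2.29%, against 1.14%). The median ∆TErel was -0.30, with quartiles of -0.54 and -0.08, against -0.08 for all genes. Of the long genes, 146 were below 0 and 130 below the median of all genes. Footprints fell for 82 long genes (background 26.2%) and rose for 13 (26.2%), with a median change of -0.38 against 0.01 for all genes. The mRNA of long genes fell for 32 (12.0%) and rose for 10 (16.5%), with a median change of -0.12 against 0.11 for all genes. Long genes took 1.80 to 1.98% of the footprints in *eIF3i DDKK* cells, against 2.97 to 2.99% in WT, and 5.06 to 5.47% of the mRNA reads, against 5.23 to 5.93% in WT. The median SE of a ∆TErel was 0.206 here, and the number of calls turned on single cultures. Without mutant culture 1, 46 long genes fell (9.74% of all genes) and 8 rose (4.39%), and without mutant culture 2, 14 fell (4.18%) and 3 rose (1.45%). With each culture as a block, which pairs the footprints with the mRNA of the same culture, 54 fell (12.7% of all genes) and 8 rose (4.46%). Without WT culture 1 or WT culture 2, edgeR called 0 in either direction, with 17 and 15 falls and 6 and 6 rises at an unadjusted p under 0.05, while DESeq2 on all 8 libraries called 11 falls and 5 rises. The mRNA counts turned on the same cultures, with 2 falls without WT culture 1 and 6 without WT culture 2 against 51 without mutant culture 1, and the footprint falls ranged over 52, 49 and 108 in these fits.

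**Figure D2:**
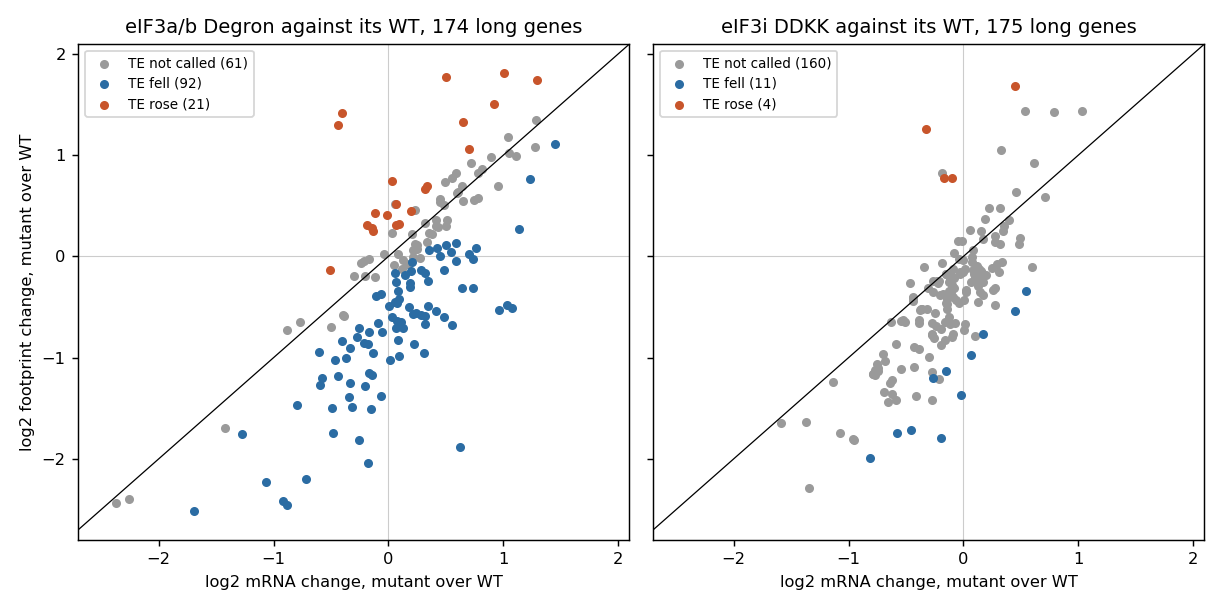
Log2 footprint change against log2 mRNA change, mutant over WT, of each long gene in *eIF3a/b Degron* (left, 174 genes) and *eIF3i DDKK* (right, 175 genes). Points are genes, coloured by their TE call, and the diagonal is an equal change of both, hence no change of TE. The 92 genes that fell on the left lie below the diagonal on both sides of the mRNA zero.

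The largest fall of TErel among the long genes in either mutant was that of *PEP1* (YBL017C, chromosome II, 186844 to 191583, minus strand), which encodes the receptor that sorts carboxypeptidase Y to the vacuole. It had 238 and 281 footprints in *eIF3a/b Degron* cultures, against 2683 and 2335 in WT, for 3395 and 3199 mRNA reads, against 3261 and 3973 in WT. Its TErel was -3.43 and -3.11 in the mutant cultures and -0.73 and -0.76 in the WT cultures, a change of -2.52 (SE 0.108, adjusted p = 3.78e-14). Thus footprints fell by 1.89 while mRNA rose by 0.63 on the log2 scale. In *eIF3i DDKK* cultures it had 424 and 286 footprints, against 5217 and 4755 in WT, and its ∆TErel was -1.60 (SE 0.203, adjusted p = 0.0046). Without WT culture 1 or 2 of that background the adjusted p was 0.194 and 0.172.

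*DNF2*, a plasma membrane phospholipid flippase, had 103 and 108 footprints in *eIF3a/b Degron* cells, against 1227 and 1037 in WT, and its mRNA reads were 1489 and 1401 against 2556 and 2992. Its ∆TErel was -1.86 (SE 0.118, adjusted p = 1.65e-11), and in *eIF3i DDKK* cells -1.26 (SE 0.276, adjusted p = 0.0366), where the mutant cultures lay apart at -2.40 and -3.16, against -1.49 and -1.44 in WT. *XRN1*, the 5′ to 3′ exonuclease of the cytoplasm, lost both mRNA (change -0.89) and footprints (-2.45) in *eIF3a/b Degron* cells. It had 335 and 282 footprints there, against 4703 and 4125 in WT, and a ∆TErel of -1.57 (SE 0.103, adjusted p = 2.53e-11). *BNI1*, a formin that nucleates actin cables, had a ∆TErel of -1.56 (SE 0.158, adjusted p = 2.26e-08), with mutant cultures at -3.09 and -3.81 and WT cultures at -1.73 and -1.98. *FKS3*, a glucan synthase homologue, changed by -1.58 (SE 0.294, adjusted p = 7.68e-05) on few footprints, 28 and 18 against 102 and 69 in WT, and its mRNA rose by 1.08. All 5 kept a lower TErel past the threshold in *eIF3a/b Degron* cells with each culture left out in turn.

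In both mutants TErel fell for 10 of 174 long genes (5.75%, against 2.68% of the 5228 genes tested in both), and the 6 with the largest falls in both were *PEP1*, *GLT1*, *DNF2*, *RPO21*, *EDE1* and *ROM2*. *GLT1*, glutamate synthase, had a ∆TErel of -1.51 (SE 0.107, adjusted p = 8.93e-11) in *eIF3a/b Degron* cells, where its mRNA reads were 6372 and 6266, against 4808 and 5671 in WT. Its scaled mRNA rose by 1.03 and its footprints fell by 0.48, at 547 and 546 against 2276 and 1718. Its change in *eIF3i DDKK* cells was -1.35 (SE 0.263, adjusted p = 0.0258) with an mRNA change of -0.02. *RPO21*, the largest subunit of RNA polymerase II, changed by -1.27 (SE 0.0937, adjusted p = 1.78e-10) and -1.18 (SE 0.255, adjusted p = 0.0364). *EDE1*, whose WT TErel is high for its length, had 718 and 740 footprints in *eIF3a/b Degron* cells, against 9451 and 8050 in WT, and changes of -1.48 (SE 0.0968, adjusted p = 2.29e-11) and -1.17 (SE 0.212, adjusted p = 0.0206). *ROM2*, an exchange factor for the cell wall GTPase Rho1, changed by -1.35 (adjusted p = 2.28e-08) and -1.04 (adjusted p = 0.0233). The other genes called lower in both were *YTA7*, *BNI1*, *SSK2* and *MYO4*. *PDR12*, an exporter of weak acids, was called lower in *eIF3i DDKK* cells, at -0.88 (adjusted p = 0.049), and was at -0.12 in *eIF3a/b Degron* cells, and the test of the difference between the mutants had an adjusted p of 0.109.

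The long genes that escaped the fall were headed by transporters of the ABC family. *AUS1*, which takes up sterols, had 198 and 176 footprints in *eIF3a/b Degron* cells, against 203 and 194 in the deeper WT libraries, while its mRNA reads were 277 and 218 against 519 and 620. Its TErel was -0.08 and 0.09 in the mutant cultures and -1.80 and -1.67 in the WT cultures, a change of 1.74 (SE 0.168, adjusted p = 1.12e-08). Its change in *eIF3i DDKK* cells was 1.58 (SE 0.251, adjusted p = 0.0127), at -0.74 and -0.16 against -2.12 and -1.91 in WT. *PDR10*, a multidrug transporter homologue, changed by 1.82 (SE 0.182, adjusted p = 1.96e-08) and 1.23 (SE 0.194, adjusted p = 0.0127), with 111 and 101 footprints in *eIF3a/b Degron* cells and 97 and 110 in WT.

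*MMS22*, part of a ubiquitin ligase that acts at damaged replication forks, changed by 1.27 (SE 0.132, adjusted p = 3.23e-08) in *eIF3a/b Degron* cells, where both its mRNA (0.50) and its footprints (1.77) rose, and by 0.87 (SE 0.183, adjusted p = 0.0331) in *eIF3i DDKK* cells. *HAP1*, the transcription factor that responds to haem, changed by 0.37 (SE 0.098, adjusted p = 0.0028) and 0.94 (SE 0.205, adjusted p = 0.0364), the first of which reached only 0.28 (adjusted p = 0.074) without culture 1 of WT. These 4 were the long genes with higher TErel in both mutants (2.30%, against 0.976% of the genes tested in both), and none of the 4 was called in *eIF3i DDKK* cells without WT culture 1 or 2 (adjusted p of 0.172 to 0.591 over the 4 genes and both fits). In *eIF3a/b Degron* cells alone the next largest rises were those of *VMR1*, a vacuolar ABC transporter (0.80, SE 0.127, adjusted p = 1.14e-05), and *PDR15*, another multidrug transporter homologue (0.72, SE 0.141, adjusted p = 0.000149). The 21 genes that rose had a median WT TErel of -2.09 relative to all genes, against -1.51 for the 92 that fell and -1.87 for the 61 not called. Among the 44 long genes with the lowest WT TErel 16 fell and 10 rose in *eIF3a/b Degron* cells, and among the 44 with the highest 31 fell and 3 rose. ∆TErel and WT TErel share the WT libraries, so that an error in these pushes both in opposite directions.

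**Figure D3:**
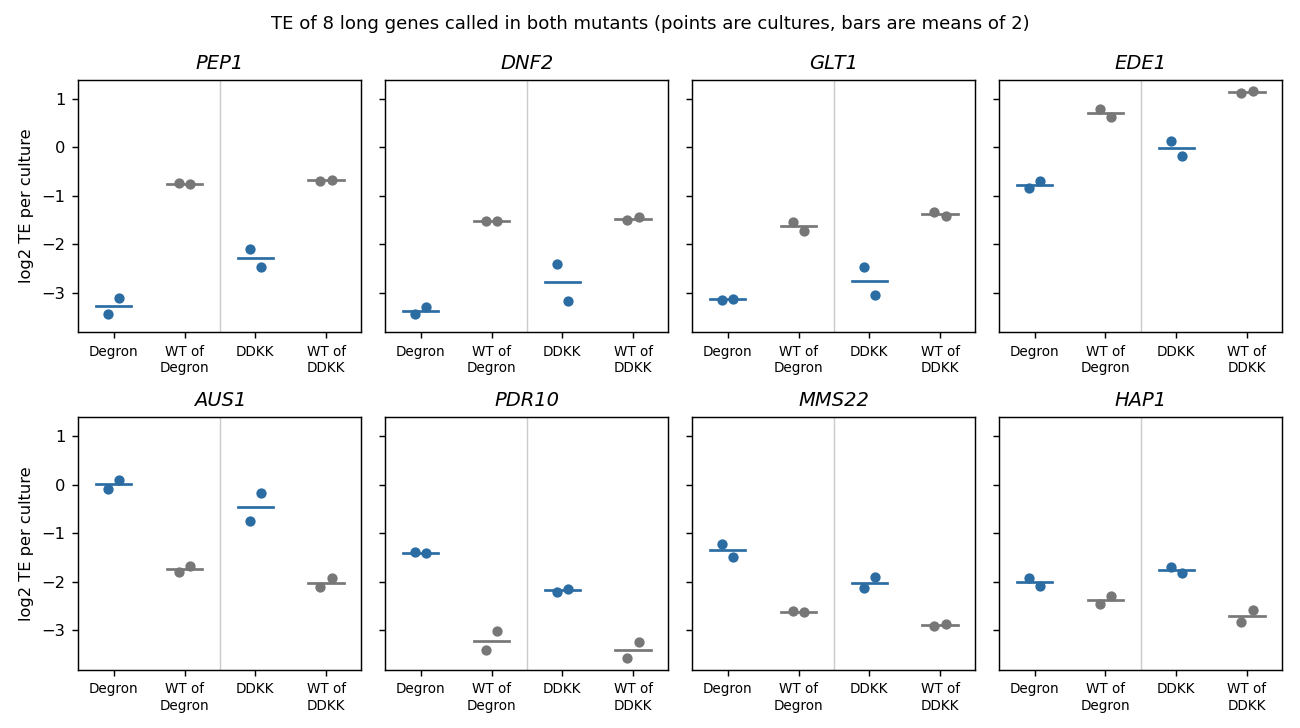
Log2 TE of each culture for 4 long genes that fell (top row) and 4 that rose (bottom row) in both mutants, with each mutant left of its WT. Points are cultures and bars are means of 2. The mutant cultures of *PEP1* lie at -3.43 and -3.11 in *eIF3a/b Degron*, below WT at -0.73 and -0.76, and those of *AUS1* at -0.08 and 0.09, above WT at -1.80 and -1.67.

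The bases around the start codon are shown for the 5 long genes with the largest falls and the 5 with the largest rises in *eIF3a/b Degron* cells, since the ribosome selects the start codon partly by the base 3 before it, where A is most common in yeast. Sequences are from the RefSeq R64 genome, 5′ to 3′, with 12 bases before the start codon and 6 coding bases, and the base at position -3 and the ATG are in capitals.
PEP1, chrII:191578-191595, minus strand: tcatcacacGttATGata
DNF2, chrIV:631270-631287, plus strand: ctcaacacaTatATGtca
FKS3, chrXIII:881147-881164, plus strand: aaggagttgAatATGgat
XRN1, chrVII:180108-180125, minus strand: tatcagtacGgtATGggt
BNI1, chrXIV:135378-135395, minus strand: gaaggaaagGaaATGttg
PDR10, chrXV:931791-931808, plus strand: atagttgttAggATGttg
AUS1, chrXV:349667-349684, plus strand: tctggaattAatATGtca
MMS22, chrXII:771928-771945, plus strand: gcagataagCttATGgat
VMR1, chrVIII:32751-32768, minus strand: ctacctcggAgaATGgga
PDR15, chrIV:1279198-1279215, plus strand: tatcaaaaaCctATGtca
The first 5 fell and the last 5 rose. Of all 175 long genes, 50.9% have A at -3, against 60.9% of the 5450 genes with an annotated start context. By call in *eIF3a/b Degron* cells, A stood at -3 in 47 of the 92 that fell (51.1%), 8 of the 21 that rose (38.1%) and 34 of the 61 not called (55.7%). The median GC content of the CDS was 37.7% in long genes and 39.7% in all genes. It was 38.3% in those that fell and 37.8% in those that rose.

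The long genes were described in 15 lists by function, which hold 120 of the 175, and the other 55 belong to no list. In *eIF3a/b Degron* cells each list had a median ∆TErel below that of all genes under each scaling tried, but with library size alone 9 of the 15 medians were above 0, so list directions are relative to all genes. In *eIF3i DDKK* cells 14 of the 15 medians were below that of all genes, and that of the PI kinase family and TOR complexes was -0.05. The list of biosynthetic enzymes, which also holds the urea-degrading enzyme urea amidolyase, had the lowest median, -1.06. All 10 of its genes fell, or 9 with library size alone. *ACC1*, acetyl-CoA carboxylase, changed by -1.50 and *FAS1*, the beta subunit of fatty acid synthase, by -1.32 (adjusted p = 1.07e-11 and 2.37e-10). The footprints of *ACC1* were 902 and 873 in *eIF3a/b Degron* cells, against 13507 and 11332 in WT. In *eIF3i DDKK* cells the list had a median of -0.56 and only *GLT1* passed, with *ACC1* at -0.94 and *FAS1* at -0.85 (adjusted p = 0.125 and 0.266).

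Genes of the cytoskeleton and of signalling followed, with medians of -0.65 and -0.57 in *eIF3a/b Degron* cells. Of the 10 cytoskeleton genes 8 fell and 1, *BNR1*, rose, and *MYO4*, the myosin that carries mRNA to the bud, changed by -1.05 (adjusted p = 1.04e-07). *BNI1*, *EDE1* and *MYO4* were called lower in *eIF3i DDKK* cells too, where the median was -0.38. Of the 8 genes of Ras, cAMP and kinase signalling 7 fell, or 3 with library size alone, among them the Ras GTPase-activating proteins *IRA1* (-1.04) and *IRA2* (-0.64) and the osmosensing kinase *SSK2* (-0.98), which also fell in *eIF3i DDKK* cells (-0.94, adjusted p = 0.0321). Of the 6 glucan synthases and wall glycoproteins 3 fell, *FKS3*, *FKS1* (-1.50) and *GSC2* (-0.67), which are the 3 glucan synthase genes of the list. *FKS1*, the main glucan synthase of growing cells, had 15531 and 15207 mRNA reads in *eIF3a/b Degron* cells, against 11912 and 14877 in WT, and 1481 and 1379 footprints, against 5690 and 5105.

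The 15 ABC transporters and flippases split most, with 8 lower and 5 higher in *eIF3a/b Degron* cells and a median of -0.31. Of all long genes 52.9% fell and 12.1% rose, and of all genes 33.1% and 26.8%. These shares are the comparison for the list counts here and for those that follow. The share of transporters that fell was near that of all long genes. The 5 that rose were *PDR10*, *AUS1*, *VMR1*, *PDR15* and *PDR5*, and those that fell included *DNF2*, *DRS2* and the vacuolar transporters *YCF1*, *BPT1* and *YBT1*. The fall of *DRS2* (-0.31, adjusted p = 0.0245) held in 1 of the 4 fits that left out a culture. Chromatin genes also split, with 8 of 16 lower and 4 higher, or 4 lower and 6 higher with library size alone. Separase (*ESP1*, -1.17), the chromatin-bound ATPase *YTA7* (-1.08) and the cohesin loader *SCC2* (-1.07) had the largest falls, and *ESP1* and *SCC2* rest on 29 and 42 and on 77 and 54 mutant footprints. Of the 6 polymerase subunits 3 fell, the largest subunits of RNA polymerases II (*RPO21*), III (*RPO31*, -0.95) and I (*RPA190*, -0.47), and 1 rose, *POL2* of DNA polymerase epsilon (0.50, SE 0.101, adjusted p = 0.000187). With library size alone 2 fell and 3 rose. The DNA polymerase genes *POL1* (0.15) and *REV3* (0.24) were not called.

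In the lists of the nuclear pore (median -0.39), membrane traffic (-0.34) and the PI kinase family with TOR complexes (-0.27), 4 of 7, 5 of 9 and 4 of 10 fell in *eIF3a/b Degron* cells, the last near the 33.1% of all genes. With library size alone 2 fell and 1 rose, 3 fell and 2 rose, and 2 fell and 3 rose. The basket proteins *MLP2* and *MLP1* changed by -0.81 and -0.51, and the Arf exchange factors *SEC7* and *GEA2* by -0.69 and -0.68. *TRA1*, a subunit of histone acetyltransferase complexes, and the checkpoint kinase *MEC1* changed by -0.91 and -0.78, whereas *TOR1* was at -0.13 and was not called. *TEL1* changed by -0.44 on 52 and 64 mutant footprints, and its adjusted p was over 0.05 with 3 of the 4 cultures left out. In *eIF3a/b Degron* cells the mRNA of the bridge-like lipid transfer proteins fell for 4 of 5, by 1.27 for the autophagy protein *ATG2*. That of the ubiquitin ligases and proteasome regulators fell for 3 of 5, among them *UBR1*, which is driven by *GAL1* in both strains. Of all genes, 30.8% had lower mRNA.

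**Figure D4:**
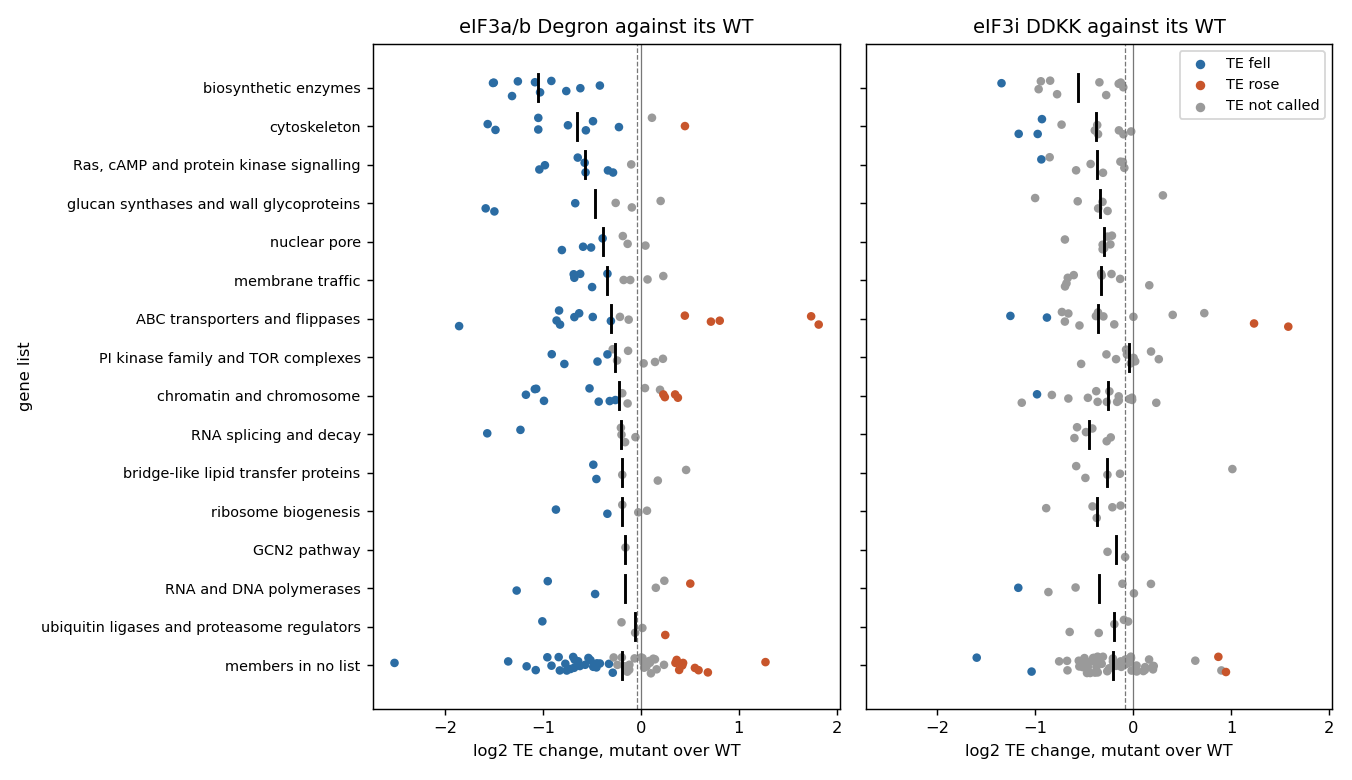
Log2 TE change, mutant over WT, of each long gene by functional list, with *eIF3a/b Degron* on the left and *eIF3i DDKK* on the right, ordered by the *eIF3a/b Degron* median. Points are genes coloured by call, black bars are list medians, the solid line is 0 and the dashed line the median of all genes. All 10 genes in the list of biosynthetic enzymes fell on the left, and the transporters reach from -1.86 to 1.82.

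The 5 ribosome biogenesis genes stood out by their mRNA. In *eIF3a/b Degron* cells the mRNA of all 5 rose (44.3% of all genes and 50.6% of long genes), with a median change of 1.27 against 0.12 for all genes. Their footprints rose as well (41.8% of all genes), with a median of 1.08 against 0.01. *MDN1*, the ATPase of large-subunit maturation and the longest gene in the tables (14673 nt), had 12011 and 11164 mRNA reads in *eIF3a/b Degron* cells, against 6457 and 7905 in WT, and 1000 and 913 footprints, against 1143 and 1162. Its mRNA change was 1.45 and its ∆TErel -0.34 (SE 0.102, adjusted p = 0.00612), a call that was lost without culture 2 of WT (-0.25, adjusted p = 0.109). *RRP5*, needed for the maturation of both subunits, had the clearest fall of TErel in the list, -0.87 (SE 0.0967, adjusted p = 9.45e-08), with an mRNA change of 1.14. *URB1* was at -0.19 (adjusted p = 0.138) with an mRNA change of 1.27. The median mRNA change of the list in *eIF3i DDKK* cells was 0.11, and that of its footprints -0.29.

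Length alone did not order the longest genes. After *MDN1* the longest were *DYN1* (12219 nt), the dynein heavy chain, *TRA1* (11175 nt), *TOM1* (9747 nt), a ubiquitin ligase, and *VPS13* (9375 nt), a lipid transfer protein. Their ∆TErel in *eIF3a/b Degron* cells was 0.11 (adjusted p = 0.383), -0.91 (8.04e-08), 0.25 (0.0242) and -0.19 (0.0882). TErel of *TOM1* was -2.04 and -1.98 in the mutant cultures, above -2.31 and -2.21 in WT, but the change missed the threshold with 3 of the 4 cultures left out. *DYN1* had 220 and 212 footprints in the mutant and 404 and 359 in WT, and its TErel of -3.56 and -3.54 lay close to -3.66 and -3.67 in WT. The same 4 genes in *eIF3i DDKK* cells were at -0.02, -0.53, -0.10 and -0.49, with adjusted p of 0.185 or more.

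Where TErel did not change, mRNA and footprints could still fall together. *ECM29*, a proteasome adaptor chosen after its values were seen, had 640 and 621 mRNA reads in *eIF3a/b Degron* cells, against 4982 and 6113 in WT, and 278 and 294 footprints, against 4166 and 3891. Its mRNA fell by 2.37 and its ∆TErel was -0.06 (adjusted p = 0.651). Likewise its mRNA fell by 1.59 in *eIF3i DDKK* cells, with a ∆TErel of -0.05 (adjusted p = 0.909). The proteasome activator *BLM10* had mRNA changes of -0.50 and -0.77 and ∆TErel of -0.20 and -0.35 in the 2 mutants, neither of which was called.

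Across the mutants, 118 of 174 long genes were below 0 in both, 22 above 0 in both and 34 of opposite sign, and no long gene was called in opposite directions. Across the 174 genes the Pearson correlation of the ∆TErel values was 0.77 and the Spearman value 0.68. Genes that fell in *eIF3a/b Degron* cells had a median ∆TErel of -0.47 in *eIF3i DDKK* cells and 88 of the 92 were below 0, those that rose had a median of 0.10 with 13 of the 21 above 0, and those not called had a median of -0.18 with 49 of the 61 below 0. Of all 175 long genes, 146 were below 0 in *eIF3i DDKK* cells, and 130 were below the median of all genes (-0.08). In *eIF3a/b Degron* cells 125 of 174 were below 0 and 124 were below the median of all genes (-0.04). The zero depends on the scaling, so these counts of signs do too, and the signs of all genes were not counted. The backgrounds share no library, and in both the cells were moved to a higher temperature.

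The difference between the mutants was tested in one fit of all 16 libraries. TErel changed more negatively in *eIF3a/b Degron* than in *eIF3i DDKK* cells for 4 long genes (1.78% of all genes tested), and for 0 it was more positive (1.89%) by edgeR, against 1 by DESeq2 and 15 at an unadjusted p under 0.05. The 4 were *FKS3*, *XRN1*, *PEP1* and *MEC1*. None of them passed without either *eIF3a/b Degron* culture, either of its WT cultures or either WT culture of *eIF3i DDKK*, when edgeR called 0 long genes with 7 to 12 at an unadjusted p under 0.05, against 5 by DESeq2 on all libraries. Without *eIF3i DDKK* culture 2, 19 passed. Of the genes called in *eIF3a/b Degron* cells alone, only *FKS3*, *XRN1* and *MEC1* differed from *eIF3i DDKK* cells by this test, and *PEP1* was called in both. The mutation and the other differences between the backgrounds cannot be told apart in this test.

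**Figure D5:**
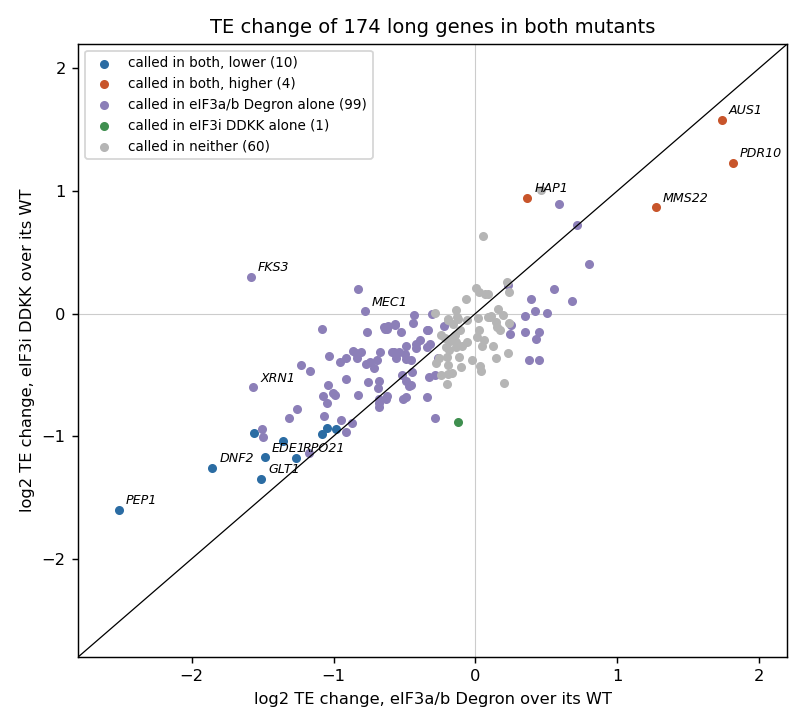
Log2 TE change in *eIF3i DDKK* (vertical) against that in *eIF3a/b Degron* (horizontal), each over its own WT, for 174 long genes. Points are genes coloured by where they were called, and the diagonal is an equal change. *PEP1* lies at -2.52 and -1.60, *AUS1* at 1.74 and 1.58, and *FKS3*, at -1.58 and 0.30, lies farthest above the diagonal.

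A pair of long genes is altered by the genotypes themselves. *GCN2*, which encodes the kinase that phosphorylates eIF2, is interrupted in both strains of the Degron background and had 30 and 21 mRNA reads in *eIF3a/b Degron* cells, against 25 and 34 in WT, and was not tested there. Both strains of the DDKK background carry *GCN2* inserted at *ura3*, so its counts there are also subject to the genotype. In that background *GCN2* had 1106 and 869 mRNA reads in the mutant, against 1961 and 1293 in WT, and a ∆TErel of -0.26 (SE 0.158, adjusted p = 0.391). *GCN1*, which activates Gcn2, was at -0.16 (adjusted p = 0.13) in *eIF3a/b Degron* cells. *UBR1*, the ubiquitin ligase that drives degron turnover, is expressed from *GAL1* in both Degron-background strains, where it took 12.1 to 19.7% of the mRNA reads on long genes. It had 59705 and 56749 mRNA reads in *eIF3a/b Degron* cells, against 134416 and 141208 in WT, and a ∆TErel of -1.01 (SE 0.111, adjusted p = 8.7e-08). In the DDKK background, where it is not under *GAL1* by the labels, its ∆TErel was -0.65 (SE 0.211, adjusted p = 0.113).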

How the data were processed

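The authors deposited a table of read counts per gene for each background, without normalization, counted on the CDS without its first 15 and last 5 codons, with the counted length. Per the labels, reads were processed with CASAVA 1.8, Bowtie2 2.2.6.0, TopHat2 2.1.0 and DESeq2 on sacCer3. Whether counting used strand is not given in the sources used here, so reads of *DRS2*, *TAF2*, *INO80*, *RSF2* and *THO2*, which overlap other annotated genes, cannot be assigned with certainty. A table of the authors' own log2 TE values, log2 changes and adjusted p-values was deposited too and was not used. The labels call the 2 cultures of each strain biological replicates.

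Counts were fitted with edgeR 4.0.16 in R 4.3.3 (TMM over the 8 libraries of a background, terms for assay, genotype and their interaction, quasi-likelihood F-test, Benjamini-Hochberg over all genes tested). ∆TErel is the interaction, and its SE is the size of the change divided by the square root of F. TErel per culture added 0.5 reads. The difference between mutants used 16 libraries in one fit. Counts were simulated with 199 (Degron) and 200 (DDKK) genes changed 2-fold, up or down, in the mutant footprints alone. Of these 188 and 123 were recovered, and 15 of 203 and 2 of 125 calls were false. Far more genes were called in the Degron data (33.1% lower and 26.8% higher in TErel), so these rates need not hold there. For the difference 108 of 200 were recovered. Alternatives were DESeq2 1.42.0, library size alone with and without YDR445C, TMM within each assay, at least 10 counts per library, an unfiltered fit, blocks for the replicate number or the culture, all 16 libraries, other length minimums and fits without single cultures, the last for the difference chosen after seeing the data. Sequences and positions came from RefSeq R64, which matched all 175 long genes. Other steps used Python 3.11.15, pandas 2.3.3 and matplotlib 3.10.9.

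The members, the lists and the tests were chosen with earlier results of these data known. Named genes are the 5 longest, the 5 largest called changes each way per mutant with a mean of at least 32 footprints per library, at most 10% shared windows and separate cultures, those called in both mutants, *GCN2* and *UBR1*, the 3 genes on each side of the length limit, and the largest changes of each list. *PDR12*, *YCF1*, *BPT1*, *YBT1*, *BNR1*, *PDR5*, *RPA190*, *POL1*, *REV3*, *TOR1* and *ECM29* were named after their values were seen.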

Additional observations from a re-analysis of the deposited data

Results flagged for a closer look

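For 4 of 174 long genes (1.78% of all genes tested were called in this direction) the ∆TErel in *eIF3a/b Degron* cells differed from that in *eIF3i DDKK* cells by the test of the difference itself (edgeR's quasi-likelihood test on all 16 libraries, adjusted over 5228 genes). The difference, on the log2 scale and *eIF3a/b Degron* minus *eIF3i DDKK*, was -1.85 for *FKS3* (SE 0.491, adjusted p = 0.0494), -0.93 for *XRN1* (SE 0.206, adjusted p = 0.0242), -0.88 for *PEP1* (SE 0.229, adjusted p = 0.0448) and -0.77 for *MEC1* (SE 0.201, adjusted p = 0.0476). *FKS3* rests on the fewest reads, with 28 and 18 footprints in *eIF3a/b Degron* cultures (102 and 69 in their WT). *eIF3i DDKK* cultures had 30 and 15 (46 and 50 in their WT). *MEC1* was at -0.78 in *eIF3a/b Degron* cells and at 0.02 in *eIF3i DDKK* cells. All 4 lost their calls without either culture of *eIF3a/b Degron*, of its WT or of the WT of *eIF3i DDKK*, where the adjusted p was 0.0677 to 0.25, and *FKS3* also without *eIF3i DDKK* culture 1 (adjusted p = 0.136). With a minimum of 10 counts in every library 1 long gene passed in this direction, and with library size alone 0 passed, with 5 at an unadjusted p under 0.05, against 5 called by DESeq2.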

How the results depend on the processing

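The median ∆TErel of long genes stayed below that of all genes under each alternative, between -0.31 and -0.27 in *eIF3a/b Degron* cells and between -0.31 and -0.15 in *eIF3i DDKK* cells, while counts of calls moved with the scaling. The cause of these moves was not tested. With library size alone, 60 long genes fell (18.4% of all genes) and 50 rose (46.7%) in *eIF3a/b Degron* cells with a median of 0.000677, and *DRS2* turned to 0.0066. In *eIF3i DDKK* cells TErel then fell for 5 (0.934% of all genes), and the median was -0.17. There mRNA fell for 17 and rose for 16, and footprints fell for 45 and rose for 21. Without YDR445C, which took 8.79 to 29.9% of the mRNA reads, the same scaling gave 61 and 44 with a median of -0.043 in *eIF3a/b Degron* cells, and 5 falls, mRNA and footprints higher for 25 and 25, and a median of -0.17 in *eIF3i DDKK* cells. With TMM within each assay the medians were -0.18 and -0.22, with 7 falls in *eIF3i DDKK* cells. With DESeq2, 6 mRNAs rose and the median was -0.22 in *eIF3i DDKK* cells, and 1 long gene was higher in the test of the difference. With all 16 libraries in one fit, 55 fell (17.8% of all genes) and mRNA rose for 57 in *eIF3a/b Degron* cells (median -0.14). In *eIF3i DDKK* cells 29 fell (6.45% of all genes), 7 rose (7.38% of all genes) and mRNA fell for 64 (median -0.16). The 7 rises there were a smaller share of the 174 long genes than of all genes, unlike in the main fit. With a minimum of 10 counts WT TErel in the Degron background was -1.76, and the difference was lower for 1 and higher for 1; with library size alone it was lower for 0 (5 at an unadjusted p under 0.05, and 5 by DESeq2).

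At 3000 nt or more, WT TErel relative to all genes was -1.37 and -1.21 in the Degron and DDKK backgrounds, and the shares of genes called stayed within 1.5 times those given. At 5000 nt or more WT TErel was -1.99 and -1.82. There TErel rose for 4.69% in *eIF3a/b Degron* cells, while in *eIF3i DDKK* cells TErel rose for 0% by edgeR (1 gene at an unadjusted p under 0.05 and 1 by DESeq2), mRNA for 3.12% and footprints for 4.69%.

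The labels do not say that a replicate number marks a shared batch, and deviations of same-numbered cultures correlated across long genes by 0.02 for mRNA, 0.07 for footprints and 0.16 for TErel in the Degron background, and by 0.33, 0.49 and 0.27 in the DDKK background, over 2 pairs each. With the replicate block 38 long genes fell (8.28% of all genes) and mRNA rose for 17 in *eIF3i DDKK* cells, and the difference was higher for 3. With each culture as a block 54 fell (12.7% of all genes) and 8 rose (4.46%) in *eIF3i DDKK* cells.

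With each culture left out in turn, *eIF3i DDKK* cells had 0 to 46 falls and 0 to 8 rises of TErel, 2 to 51 and 0 to 17 of mRNA, and 49 to 108 and 6 to 14 of footprints, with medians from -0.39 to -0.22, or -0.31 to -0.15 relative to all genes. The 0 rises of mRNA were by edgeR without either WT culture, with 8 and 5 at an unadjusted p under 0.05 and 6 by DESeq2. In *eIF3a/b Degron* cells 12 to 17 rose, and *HAP1*, *TOM1*, *MDN1*, *TEL1*, *DRS2* and *ATG2* lost their calls in at least 1 fit. The difference, with leave-one-out fits chosen after seeing the data, was lower for 0 to 19 and higher for 0 to 6.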
